A study of Mus musculus with 2 samples.

Results

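Preadipocyte and fibroblast identity markers are transcripts used to mark preadipocytes and other stromal cells, and not all of them fall when such cells become adipocytes. The set held 10 genes, namely Dlk1, Thy1, Pdgfra, Pdgfrb, Ly6a, Cd34, Vim, S100a4, Gata2 and Gata3. Every gene probe of the array that carried one of these names was taken, which gave 15 of 41174 probes, 0.0364% of all. They occupied 24 spots on each array, since 1 Pdgfra probe was printed 10 times and the other 14 probes once.

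The RNA came from the mouse preadipocyte cell line 3T3-L1, grown with 10% fetal serum and turned into adipocytes by a mix of insulin (10 µg/ml), IBMX (0.5 mM) and dexamethasone (0.25 µM). The medium was conditioned until day 11 of this induction, and ultracentrifugation brought down the adipocyte-derived microvesicles (ADMs) it held. RNA of the ADMs was then set against RNA of the adipocytes that had released them. There were 2 replicates, called biological in the labels, each a pair of 1 ADM RNA and 1 cell RNA on a single 2-colour Agilent array. The ADM RNA carried Cy5 in replicate 1 and Cy3 in replicate 2. All of these RNAs come from the same line and the same induction, with no uninduced preadipocytes beside them. Which RNA is which was read from the dye labels alone, and the RNAs are therefore called ADM-labelled and cell-labelled.

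In white fat, adipocytes arise from fibroblast-like progenitors that carry PDGF receptors and surface antigens such as CD34, THY1 and SCA-1, the product of Ly6a. DLK1, also called PREF-1, sits on the preadipocyte surface and is shed as a fragment that restrains differentiation, while GATA2 and GATA3 hold back PPARG. As 3T3-L1 cells fill with lipid, Dlk1, Gata2 and Gata3 are known to fall, whereas vimentin stays and forms a cage around lipid droplets. In RNA pooled from many cells, fewer cells of a kind and less RNA per cell cannot be told apart.

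Across the arrays, the ADM-labelled RNA gave the stronger signals, with a 99th percentile of net signal of 51014 and 19224 scanner units against 677 and 2481 for the cell-labelled RNA. Net signal is the mean brightness of a spot minus its median local background. No spot of a gene probe was saturated. Because both RNAs were amplified from 250 ng, ratios describe the make-up of each RNA, and with 2 arrays the precision of each value is low.

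Markers of the labelled cell were present. Both arrays showed all 22 probes of the mature adipocyte marker list well above background for the ADM-labelled RNA, and 20 for the cell-labelled RNA. Adipoq, which encodes adiponectin, gave 410006 and 225971 scanner units in the ADM-labelled RNA and 738 and 7609 in the cell-labelled RNA. It had an outlier flag in replicate 1 and was not tested. Of 18 probes of fibroblast and matrix markers, 14 were well above background in the ADM-labelled and 8 in the cell-labelled RNA. The endothelial list had 0 of 13 probes and the epithelial list 0 of 6 above background on both arrays in either RNA. The summed net signal of the endothelial probes was 125 and 65.4 scanner units in the ADM-labelled RNA, against 86.4 and 94.7 in the cell-labelled RNA. Of 13 macrophage and leukocyte probes, both arrays showed 2 for the ADM-labelled and 1 for the cell-labelled RNA, and Ptprc, the leukocyte common antigen, in neither.

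Transcripts of all 10 identity markers were seen in the ADM-labelled RNA. In all, 14 of the 15 probes were well above background there on both arrays, where 45.8% of all probes were. In the cell-labelled RNA 6 of the 15 probes were well above background on both arrays, against 23.8% of all probes. These 6 were both Dlk1 probes and a probe each of Thy1, Pdgfrb, Vim and S100a4. Another 2 probes, of Thy1 and Ly6a, were seen there in replicate 2 alone, and 7 were not seen there. None of the 15 was seen in the cell-labelled RNA alone, as 1.77% of all probes were. On both arrays, 14 of the 15 probes had the higher net signal in the ADM-labelled RNA, a pattern shared by 90.0% of the probes that passed the filter on dim signals.

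**Figure D1:**
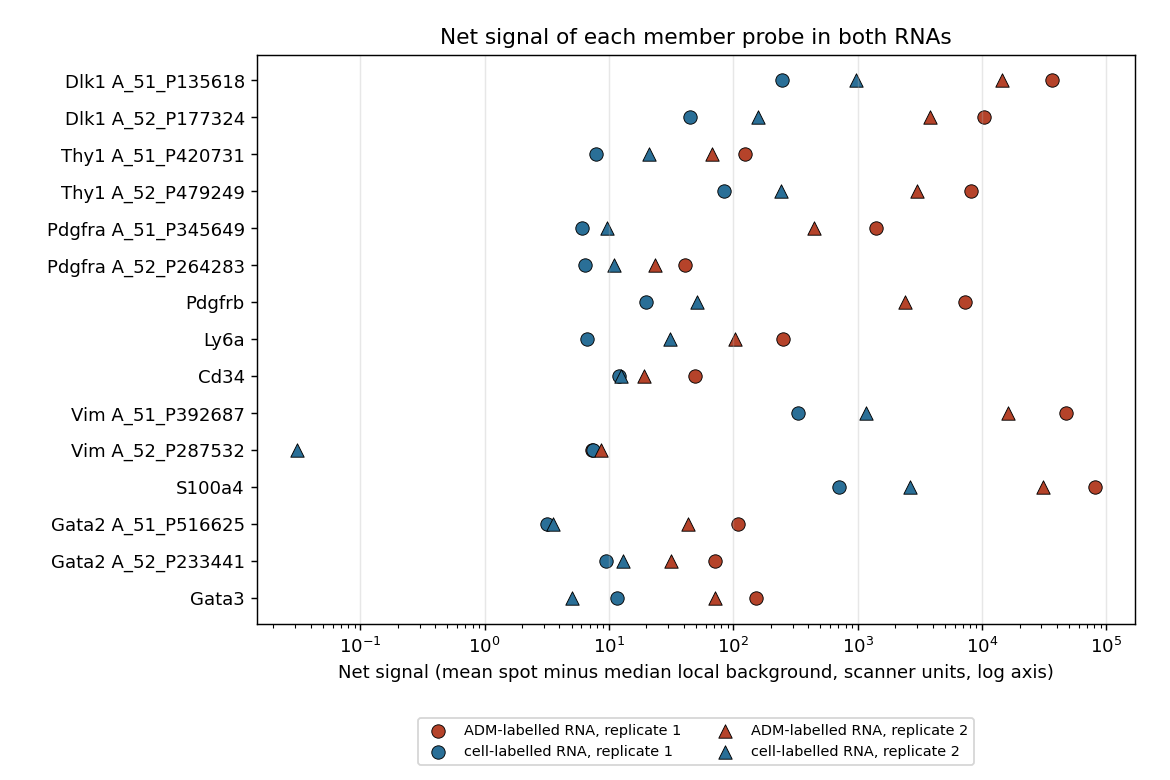
Net signal in scanner units (log axis) of each of the 15 probes in the ADM-labelled RNA (red) and the cell-labelled RNA (blue), with replicate 1 as circles and replicate 2 as triangles. The red points lie to the right of the blue ones in both replicates for every probe except the Vim probe of AK033175, whose 4 values lie between 0.0312 and 8.61.

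For the ratios, loess was applied within each array, which sets every probe against probes of similar brightness. A probe was tested where 1 of the RNAs was well above background on both arrays, which 14 member probes were, and 13 had a usable value on both arrays. In limma with Benjamini-Hochberg adjustment over all 18117 probes tested, 16.4% of probes passed an adjusted p of 0.05, 5.52% as higher in the ADM-labelled RNA and 10.9% as lower. Among the members 3 of 13 rose and 0 fell. At an unadjusted p under 0.05 in limma, the count was 6 of 13, against 6484 of the 18117 probes tested. Those that passed the adjusted threshold were the probe of Pdgfrb, 1 of 2 probes of Dlk1 and 1 of 2 probes of Pdgfra. On both arrays 8 of the 13 ratios lay above 0, 2 below 0, and 3 differed in sign. Above 0 on both arrays were 46.8% of all probes tested and below 0 34.2%. The members' median log2 ratio was 0.19, against 0.07 for all probes tested. The Pdgfra probe entered the test only through the ADM-labelled RNA, where it was bright. Where both RNAs had to be well above background on both arrays, 5 member probes were tested, without Pdgfra, and those of Pdgfrb and Dlk1 passed as higher. Of all 7920 probes tested in that way 33.9% passed, 12.2% as higher and 21.7% as lower.

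These calls rest on how outlying local backgrounds were treated. When spots that the scanner had flagged for their local background were kept, limma called 0 of 19807 probes, with 158 at an unadjusted p under 0.05, and 0 of 14 members, with 0 at that level. The log2 ratio was then 0.37 for Pdgfrb, 0.42 for Dlk1 and 0.06 for Pdgfra, where it is 1.59, 1.17 and 0.80 with these spots left out, and the adjusted p of all 3 was 0.736. When only spots with a local background over 100 scanner units were left out (13 in replicate 1 and 8 in replicate 2), a setting added after the data were seen, the same 3 probes passed.

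The PDGF receptors bind the platelet-derived growth factors and signal through tyrosine kinase domains. Pdgfrb, which marks mural cells and adipocyte progenitors, was read by a probe at chromosome 18, 61474380 to 61474439 in mouse build mm7. In replicate 1 its net signal was 7290 scanner units for the ADM-labelled and 20.0 for the cell-labelled RNA, and in replicate 2 these were 2405 and 50.6. The ADM-labelled value was the higher one on both arrays, as it was for 90.0% of the probes that passed the filter. After loess the log2 ratio was 1.42 and 1.76, a mean of 1.59 ± 0.24 (SD, n = 2), or 3.00-fold (limma adjusted p = 0.0142). Only 54 of the 18117 probes tested, 0.298%, had a higher mean ratio. With median centring in place of loess the ratio was 5.28, and with the scanner's processed signals 2.75. It was 1.98 with a normexp offset of 10 and 2.27 with plain background subtraction, so the size of the fold depends on the background setting.

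Pdgfra, the receptor most used to mark fat cell progenitors, had 2 probes, which lay 34.3 kb apart in mm7 and gave unlike ratios. The probe at chromosome 5, 74616116 to 74616175, was printed in 10 spots, all of them well above background for the ADM-labelled RNA and none for the cell-labelled RNA on either array. Its 10 spots in the ADM-labelled RNA ran from 1117 over a median of 1452 to 1534 scanner units in replicate 1, a coefficient of variation of 9.78%. In replicate 2 they ran from 373 over 458 to 498 (8.74%), while the cell-labelled spots ran from 1.35 to 12.3 and from 5.40 to 16.4. The net signals of these spots thus varied far less than they differed between the RNAs. A higher ADM-labelled net signal on both arrays was shared by 90.0% of the probes that passed the filter. The spots are also repeat readings of the same RNAs and not replicates.

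From its 8 and 9 unflagged spots, this Pdgfra probe had log2 ratios of 0.63 and 0.98, a mean of 0.80 ± 0.25 (SD, n = 2; limma adjusted p = 0.0393). Since it was not well above background in the cell-labelled RNA on either array, no fold is given. The ratio was 3.47 with median centring and 4.20 with the scanner's processed signals. The other Pdgfra probe, at 74581841 to 74581900, lies nearer the start of the gene, which RefSeq (GRCm38.p6) places on the plus strand. It gave 40.9 and 23.3 scanner units in the ADM-labelled RNA against 6.47 and 10.9 in the cell-labelled RNA. The cell-labelled signal was not well above background on either array. Its ratio of 0.11 ± 0.05 did not pass (limma adjusted p = 0.518). The ratio was 0.28 with a normexp offset of 10 and 0.66 with plain background subtraction. With median centring it was 0.16 and with the scanner's processed signals 1.02, and it passed in none of these settings.

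Dlk1 was also read by 2 probes, both of them seen in both RNAs in each replicate. The probe of accession NM_010052, at chromosome 12, 106981450 to 106981509, gave 10342 and 3797 scanner units in the ADM-labelled RNA and 44.6 and 158 in the cell-labelled RNA. Its log2 ratio was 1.17 and 1.18, a mean of 1.17 ± 0.01 (SD, n = 2), or 2.25-fold (limma adjusted p = 0.0152). Of all probes tested, 1.04% had a higher ratio, and with plain background subtraction its adjusted p was 0.0589 in limma, at a ratio of 1.37.

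The other Dlk1 probe, of accession L12721, starts 239 bases further along the same gene, at 106981689 to 106981748. It gave 36171 and 14327 scanner units in the ADM-labelled RNA and 245 and 976 in the cell-labelled RNA. Its log2 ratio of 0.24 and 0.45, a mean of 0.35 ± 0.15, did not pass (limma adjusted p = 0.134). The probes therefore differed by 0.93 in replicate 1 and 0.73 in replicate 2 after loess, and both were above 0 on both arrays. With median centring they stood at 5.14 and 5.04, and their difference was -0.17 in replicate 1 and 0.37 in replicate 2. With the scanner's processed signals the probe of NM_010052 was again the higher one on both arrays, at 1.78 and 1.29 against 0.78 and 0.63. The size of the Dlk1 ratio thus depended on the probe with loess and with the processed signals, while with median centring the order of the probes was not the same on both arrays.

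**Figure D2:**
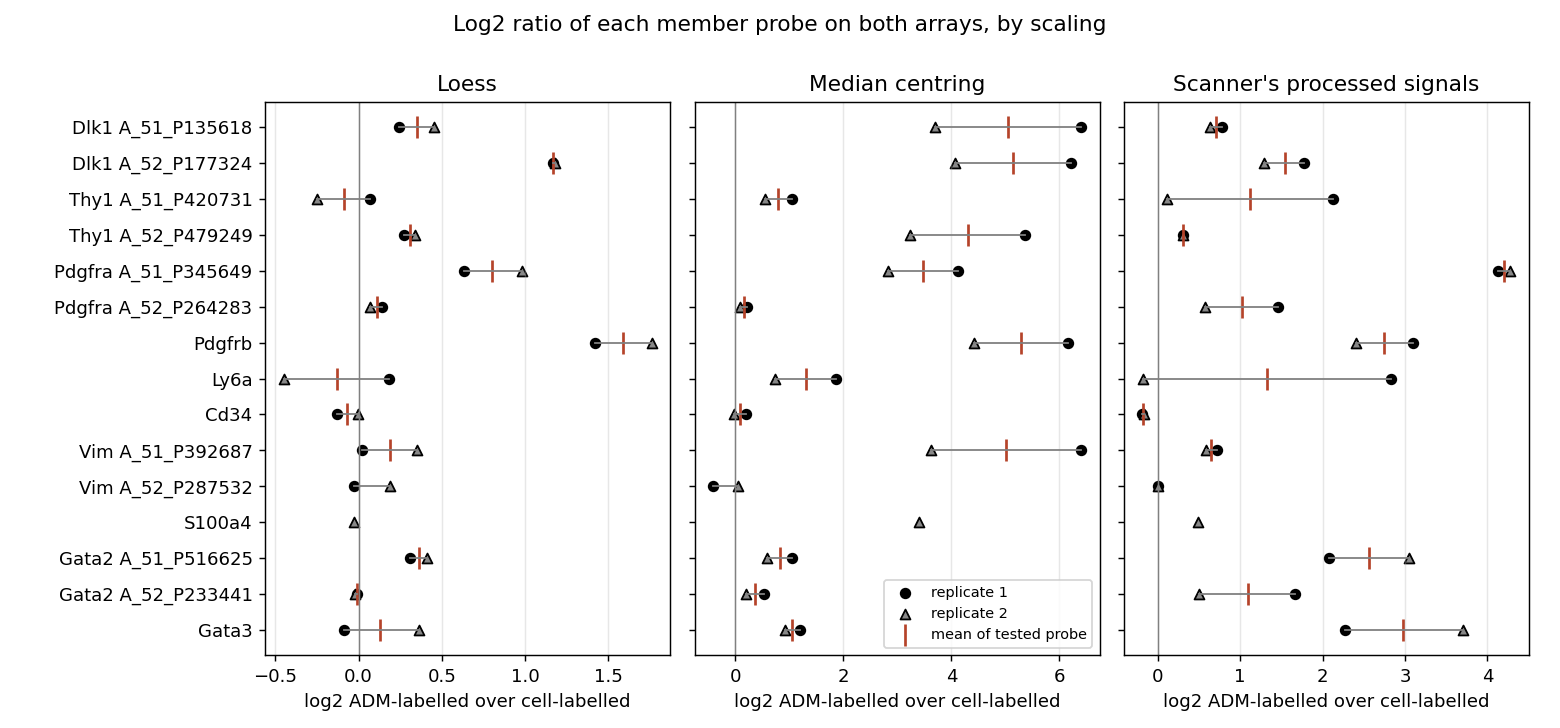
Log2 ratio of ADM-labelled over cell-labelled signal of each member probe in replicate 1 (circles) and replicate 2 (triangles), with the mean of tested probes as a red bar, under loess, median centring and the scanner's processed signals; the x axes differ. Pdgfrb lies between 1.42 and 1.76 with loess, and Ly6a changes sign between the arrays there.

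THY1 is a GPI-anchored glycoprotein of fibroblasts and other stromal cells. Its probe at chromosome 9, 43982862 to 43982921, gave 8090 and 2977 scanner units in the ADM-labelled RNA and 83.5 and 243 in the cell-labelled RNA. The log2 ratio was 0.27 and 0.34, a mean of 0.31 ± 0.05 (SD, n = 2), which did not pass after loess (limma adjusted p = 0.139). The other Thy1 probe, given in the files as 43981253 to 43981698, read 123 and 66.9 against 7.91 and 20.8 scanner units. Its ratio was 0.07 on one array and -0.25 on the other, a mean of -0.09, and turned to 0.80 with median centring and 1.12 with the scanner's processed signals.

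Ly6a and Cd34, surface antigens by which fat progenitors are sorted, did not pass in either direction. Ly6a gave 252 and 103 scanner units in the ADM-labelled RNA and 6.71 and 31.2 in the cell-labelled RNA, where it was well above background in replicate 2 only. Its log2 ratio was 0.18 in replicate 1 and -0.45 in replicate 2, a mean of -0.13 ± 0.44 (SD, n = 2; limma adjusted p = 0.636). The mean was 1.31 with median centring and 1.32 with the scanner's processed signals. Ly6a belongs to a family of closely related genes on chromosome 15, and a probe may not tell its members apart.

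Cd34, a sialomucin, was among the dimmest member probes that passed the filter, at 49.2 and 19.1 scanner units in the ADM-labelled RNA and 12.1 and 12.6 in the cell-labelled RNA. The cell-labelled signal was not well above background on either array, and the RNAs lay close in replicate 2. The log2 ratio was -0.07 ± 0.09 (SD, n = 2; limma adjusted p = 0.689), or 0.09 with median centring, so no fold is given.

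Vim and S100a4 encode abundant proteins of mesenchymal cells, an intermediate filament and a calcium-binding protein also called FSP1. The Vim probe at chromosome 2, 13521763 to 13521822, gave 47545 and 16081 scanner units in the ADM-labelled RNA and 334 and 1158 in the cell-labelled RNA. Its log2 ratio of 0.02 and 0.35, a mean of 0.19 ± 0.24 (SD, n = 2), did not pass (limma adjusted p = 0.385). With median centring the ratio was 6.40 in replicate 1 and 3.63 in replicate 2, a mean of 5.02. The second Vim probe, of accession AK033175 and 5.47 kb upstream, was not well above background in either RNA. It read 7.28 and 8.61 scanner units in the ADM-labelled RNA against 7.40 and 0.0312 in the cell-labelled RNA, and was not tested.

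S100a4 was well above background in both RNAs on both arrays, at 80868 and 30731 scanner units in the ADM-labelled RNA and 710 and 2651 in the cell-labelled RNA. Its only spot carried the local background flag in replicate 1, so it was not tested with the others. In replicate 2 its log2 ratio was -0.03. With only local backgrounds over 100 left out, the ratio was -0.55 and -0.03, a mean of -0.29 ± 0.36 (SD, n = 2; limma adjusted p = 0.284). Its value in replicate 2 was 3.40 with median centring and 0.49 with the scanner's processed signals.

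GATA2 and GATA3 are zinc finger transcription factors of the preadipocyte. Neither was well above background in the cell-labelled RNA on any array, and both arrays showed all 3 of their probes in the ADM-labelled RNA. The Gata2 probe at chromosome 6, 88281934 to 88281993, gave 108 and 43.0 scanner units in the ADM-labelled RNA and 3.20 and 3.55 in the cell-labelled RNA. Its log2 ratio was 0.31 and 0.41, a mean of 0.36 ± 0.07 (SD, n = 2; limma adjusted p = 0.110). The ratio was 1.05 with a normexp offset of 10 (limma adjusted p = 0.0199) and 3.16 with plain subtraction (limma adjusted p = 0.0342). It was 2.56 with the scanner's processed signals (limma adjusted p = 0.0227), so this probe passed in those settings. Like the Pdgfra probe, it entered the test only through the ADM-labelled RNA, and its cell-labelled signal lay near background, so no fold is given.

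The other Gata2 probe starts 473 bases before it, at 88281461, and gave 71.2 and 31.3 against 9.52 and 13 scanner units. Its log2 ratio was -0.01 on one array and -0.02 on the other (limma adjusted p = 0.936), and 0.37 with median centring. Gata3, at chromosome 2, 9796514 to 9796573, gave 153 and 70.6 scanner units in the ADM-labelled RNA and 11.7 and 5.02 in the cell-labelled RNA. Its log2 ratio was -0.09 and 0.36, a mean of 0.13 ± 0.32 (SD, n = 2; limma adjusted p = 0.566). With the scanner's processed signals Gata3 stood at 2.98 (limma adjusted p = 0.0259), but it too entered the test only through the ADM-labelled RNA.

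**Figure D3:**
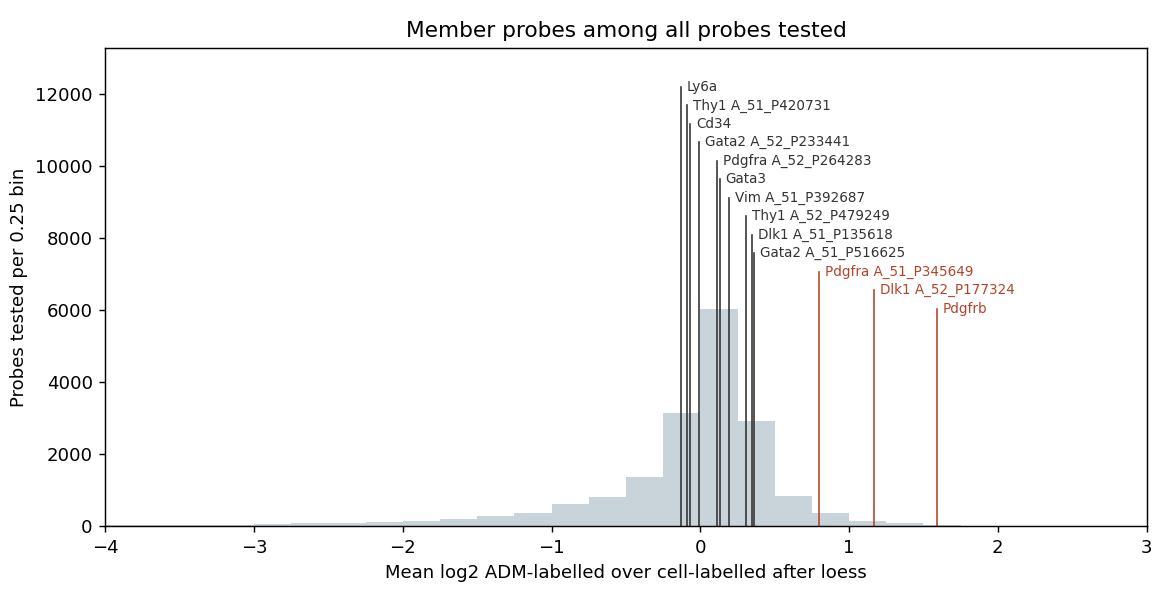
Number of probes tested by mean log2 ratio after loess (grey bars; the tail on the left runs beyond the axis), with a line for each of the 13 member probes tested, red where it passed in limma. Pdgfrb, Dlk1 and Pdgfra stand at 1.59, 1.17 and 0.80, and the other 10 lines lie between -0.13 and 0.36.

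With median centring, where a trend of ratio with brightness is not removed, all 13 member means were above 0, as were 91.4% of all probes tested. There 6 members passed as higher and 0 as lower, where 61.0% of all probes passed, 59.5% as higher and 1.46% as lower. The 6 were both Dlk1 probes, the Pdgfra probe with 10 spots, Pdgfrb, and a probe each of Thy1 and Vim. The members' median of 1.31 lay below the 2.04 of all probes tested, and 6 of the 13 members were above it. With the scanner's processed signals 5 members passed as higher, where 46.2% of all probes passed, 32.0% as higher and 14.2% as lower, at a median of 1.12 against 0.69. These 5 were Pdgfrb, 1 probe each of Dlk1, Pdgfra and Gata2, and Gata3. Those of Pdgfra, Gata2 and Gata3 entered the test only through the ADM-labelled RNA, and lay near background in the cell-labelled RNA. The probes of Pdgfrb, the Dlk1 probe of NM_010052 and the Pdgfra probe with 10 spots passed with each of the 3 scalings, but with median centring a single variance was shared by all probes and most probes passed as higher, so that setting adds little to their calls.

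Genes that work with the members were read from 8 lists of related genes, which held 205 probes, 118 of them tested. The ADM-labelled RNA was higher for 9 of these (7.63%) and lower for 13 (11.0%). Against all probes tested, where 5.52% were higher and 10.9% lower, both shares were close to the background.

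Around the PDGF receptors, 1 of 10 probes tested was higher and 0 lower, with a median log2 ratio of 0.21. The higher one was Pdgfrl, which encodes a receptor-like protein without a kinase, at 0.96 ± 0.04 (SD, n = 2; limma adjusted p = 0.0214). The ligand genes did not pass, with Pdgfa at -0.27 and -0.17 by its 2 tested probes and Pdgfc at 0.25 and 0.08, and no probe of Pdgfb was well above background in either RNA. Around DLK1, 2 of 15 probes were higher and 0 lower, at a median of 0.31. These were Fn1, which encodes fibronectin, a partner that DLK1 binds (0.80 ± 0.18; limma adjusted p = 0.0331), and Adam17, the protease that sheds DLK1 (0.66 ± 0.12; adjusted p = 0.0401). A second tested probe of each did not pass, at 0.07 for Fn1 and 0.52 for Adam17. Notch2, a receptor of the pathway whose ligands DLK1 resembles, stood at 0.82 by its highest probe and did not pass (limma adjusted p = 0.0571).

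The GATA factors, their cofactors and adipogenic partners had 0 higher and 2 lower of 19 probes, with a median of -0.08. The lower ones were Klf7, a zinc finger gene that restrains adipogenesis (-3.91 ± 0.57; limma adjusted p = 0.00676), and Cebpd, an early factor of differentiation (-0.82 ± 0.20; adjusted p = 0.0331). A second Klf7 probe gave -0.08. With median centring the Klf7 probe called lower stood at -0.50 and Cebpd at 3.12. Pparg, which the GATA factors repress, had -0.28 ± 0.25 and did not pass (limma adjusted p = 0.237), and stood at 4.64 with median centring. Zfpm2, which encodes the GATA partner FOG2, gave 0.19 and Zfpm1, which encodes FOG1, -0.10, neither of which passed.

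Among LY6 and GPI-anchored surface proteins, 2 of 10 probes were higher and 1 lower, with a median of -0.07. Prnp, which encodes the prion protein, had 1.57 ± 0.30 (SD, n = 2; limma adjusted p = 0.0171) and Cd59a, a complement inhibitor, 0.69 ± 0.18 (adjusted p = 0.0427). Cd52, which was above background in the cell-labelled RNA only, had -0.84 ± 0.11 (limma adjusted p = 0.0277), or -0.82 with median centring. Among CD34-like sialomucins and stromal surface markers, 4 of 14 probes were higher and 1 lower, with a median of 0.25. Both tested probes of Itga6, an integrin chain, passed at 1.91 ± 0.36 (limma adjusted p = 0.0146) and 1.39 ± 0.21 (adjusted p = 0.0160), as did Vcam1, an adhesion molecule, at 0.75 ± 0.04 (adjusted p = 0.0296). The lower one was Ddr2, a collagen receptor of fibroblasts, at -0.66 ± 0.06 (limma adjusted p = 0.0368), or 2.74 with median centring. Second tested probes of Cd59a (0.22), Vcam1 (0.25) and Ddr2 (0.14) did not pass.

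Cytoskeletal partners of vimentin had 0 higher and 3 lower of 14 probes, with a median of -0.04. Tubb5, a tubulin gene, gave -1.18 ± 0.47 and -0.66 ± 0.20 by 2 probes (limma adjusted p = 0.0382 and 0.0475), and Actb, the actin gene, -0.69 ± 0.01 by a probe that the files place on chromosome X (adjusted p = 0.0329). The Actb probe on chromosome 5 stood at 0.39 and did not pass, and actin has many near-identical copies. The S100 family likewise had 0 higher and 3 lower of 10 probes, with a median of -0.10. S100a1 stood at -1.03 ± 0.13 (limma adjusted p = 0.0216), S100b, which adipocytes also make, at -0.90 ± 0.03 (adjusted p = 0.0232) and S100a11 at -0.83 ± 0.06 (adjusted p = 0.0261). With median centring all 6 of the probes called lower in these 2 lists stood at 2.84 or more.

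Transcription and secreted factors of preadipocyte commitment had 0 higher and 3 lower of 26 probes, with a median of 0.10. Pi16, which marks an early fibroblast-like progenitor, had -1.03 ± 0.32 (SD, n = 2; limma adjusted p = 0.0323), Wnt6, a Wnt ligand that restrains adipogenesis, -0.72 ± 0.19 (adjusted p = 0.0399) and Prrx1, a homeobox gene of mesenchyme, -0.72 ± 0.11 (adjusted p = 0.0344). With median centring Pi16 stood at 0.34, Prrx1 at 2.70 and Wnt6 at -0.0034. The other tested probes of Wnt6 (-0.73) and Prrx1 (-0.31 and -0.20) did not pass. Zfp423, a commitment factor for the fat lineage, gave 0.28 and -0.16 by 2 probes, neither of which passed.

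Beside these, of 16 mature adipocyte probes 3 were higher and 5 lower, at a median of 0.38. Of all probes tested 5.52% were higher and 10.9% lower, at a median of 0.07. The higher ones, named after their values were seen, were Slc2a4, the insulin-responsive glucose transporter (1.39; limma adjusted p = 0.0161), Cd36, a fatty acid transporter (1.01; adjusted p = 0.0309), and Lipe, hormone-sensitive lipase (0.89; adjusted p = 0.0411). Lower, beside Fabp4 and Plin, were Lpl (-2.75; limma adjusted p = 0.0237), Pnpla2 (-1.17; adjusted p = 0.0386) and Retn (-1.16; adjusted p = 0.0466). With median centring these stood at 2.97, 4.16 and 4.04. Other tested probes of Cd36 (0.87), Lipe (0.19), Pnpla2 (0.41) and Retn (0.72) did not pass. A brighter Lpl probe, not tested, stood at 1.16 in replicate 2, where the Lpl probe called lower had -2.11. Fibroblast and matrix markers had 7 higher and 0 lower of 12 probes tested, at a median of 1.01. A probe each of Col1a1 (0.06), Col3a1 (0.0041) and Fn1 (0.07) was tested and did not pass. The list summed to 472760 and 192049 scanner units in the ADM-labelled against 1264 and 5361 in the cell-labelled RNA. Across the arrays, the ADM-labelled signal was the higher one for 90.0% of the probes that passed the filter. Pericyte and smooth muscle markers, which mark other cells that carry PDGFRB, had 0 higher and 1 lower of 8 probes, at a median of -0.10. The part of these lists in the ratios of Pdgfrb, Pdgfra and Dlk1 was not tested. Fabp4, the adipocyte fatty acid carrier, had -0.59 ± 0.13 (SD, n = 2; limma adjusted p = 0.0486) and Plin, an older name of Plin1, which coats lipid droplets, -1.33 ± 0.47 (adjusted p = 0.0309), and with median centring 5.37 and 4.19. Another Fabp4 probe, not tested, stood at 0.75 in replicate 2.

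**Figure D4:**
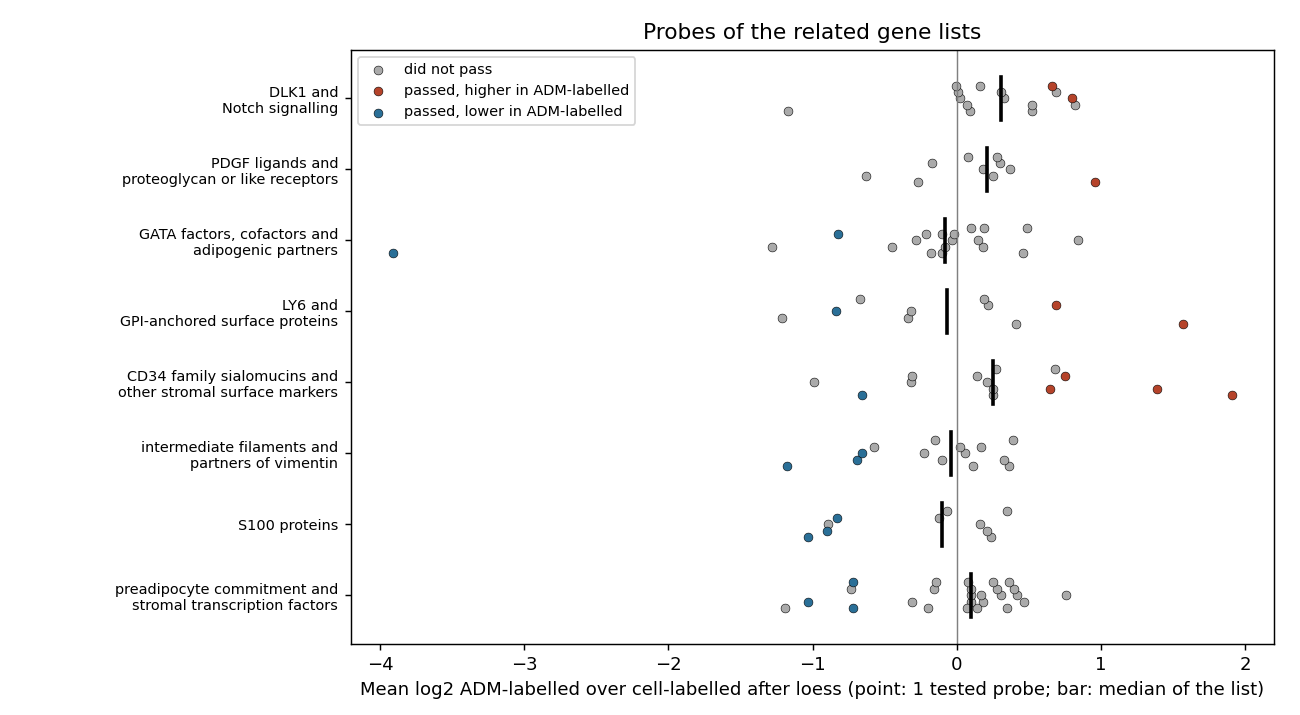
Mean log2 ratio after loess of each tested probe (points) in the 8 lists of related genes, coloured by whether it passed in limma as higher (red) or lower (blue), with the median of each list as a black bar. Medians lie between -0.10 for the S100 proteins and 0.31 for DLK1 and Notch signalling, and Klf7 at -3.91 is the point furthest left.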

How the data were processed

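Per the file headers, spots were read with Feature Extraction 10.5.1.1 on an array annotated to mouse build mm7. The deposited spot and background intensity values are raw. The deposited log10 ratio comes from signals that the same software had corrected for background, spatial trend and dye. The deposited series table equals it on array 1 and its negative on array 2 (tolerance 1e-04). No mm7 gene annotation was used here, so exons and UTRs are not given. RefSeq names 13 of the 15 member probes by accession, each with the file's symbol.

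Background was corrected with normexp (offset 50), and spots flagged for themselves or their local background were left out. Ratios were loess-normalized with controls at weight 0 and turned to ADM over cell, and spots of a probe were averaged. A probe was well above background where 50% of its spots were. The mean was tested against 0 with limma 3.58.1 in R 4.3.3, with 1 residual and 2.91 prior degrees of freedom. Named genes were every member probe, up to 3 genes per related list with the largest ratios among those that passed, and adipocyte markers; others named are identified partners, chosen after their values were seen. The sources used here do not say whether the replicates were cultured and extracted separately, so p-values cannot be read as measuring spread between cultures. They rest on a probe's spread between these arrays, which limma moderates with that of all probes tested. The members and lists were chosen with earlier results of these data known.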

Additional observations from a re-analysis of the deposited data

How the results depend on the processing

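Counts of probes moved with the scaling. With outlying local backgrounds kept, 0 probes passed in either direction in limma (158 at an unadjusted p under 0.05), and 0 members. Higher and lower probes, 1000 and 1969 in the text, were 1864 and 3059 with an offset of 10, 465 and 1507 with plain subtraction, 10778 and 265 with median centring, 5798 and 2574 with the scanner's processed signals, 1837 and 2963 with scaling between arrays, and 1706 and 2448 with a trended eBayes. The higher share of calls was 33.7%, 97.6% with median centring, 69.3% with the processed signals and 23.6% with plain subtraction. Members higher, 3 in the text, numbered 6 with median centring and 5 with the processed signals. With median centring all probes share a single variance, so its p-values do not reflect a probe's own spread. Signs turned for 4 member probes, none of which passed in any setting. With median centring, processed signals and plain subtraction in that order, the dimmer Thy1 probe stood at 0.80, 1.12 and 0.07, Ly6a at 1.31, 1.32 and 0.18, and the dimmer Gata2 probe at 0.37, 1.09 and 0.06, while Cd34 turned only with median centring (0.09). The cause was not tested. Pdgfrb passed in 11 of 12 alternatives, the Pdgfra probe with 10 spots in 10 of 11 and the Dlk1 probe of NM_010052 in 9 of 11. Without replicate 1 or 2 there is no test, and their ratios were 1.42 to 1.76, 0.63 to 0.98 and 1.17 to 1.18. The alternatives reuse the same arrays and are not independent of each other. The setting with only local backgrounds over 100 left out, counted among them, was added after the data were seen. The alternative missing for Pdgfra is the one that asks for both RNAs well above background. Each array already is the pair of RNAs, so the test of the ratios against 0 is a paired one. Signals near background in the cell-labelled RNA limit 8 of the 14 member probes that passed the filter.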

Other observations

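Of the 205 probes of related genes, 5 (2.44%) were well above background in the cell-labelled RNA on both arrays and in the ADM-labelled RNA on neither, a class that held 1.77% of all probes and 0 of the 15 member probes. They belonged to Gata4, Dll4, Podxl, Wnt6 and Cd52, and were chosen after their values were seen. Gata4, a GATA factor of heart and endoderm, gave 26.1 and 76.3 scanner units in the cell-labelled RNA and 14.9 and 8.37 in the ADM-labelled RNA. The Notch ligand gene Dll4 gave 24.3 and 69.2 against 12.8 and 8.75, and Podxl, a sialomucin related to CD34, 21.3 and 58.4 against 28.4 and 7.77. Wnt6 gave 20.6 and 40.0 against 23.7 and 10.6, and Cd52 31.8 and 33.4 against 5.10 and 5.63. Since the probes were picked for where they were seen, these levels are a description. In replicate 1 the ADM-labelled signals of Podxl and Wnt6 were the higher ones.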
